A study of Bos taurus with 22 samples.

Results

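Tight junctions were examined in the jejunal mucosa of 22 Holstein steers, 10 to 12 months of age, through 9 genes: the claudins CLDN3, CLDN4, CLDN7, CLDN23 and CLDN15, occludin (OCLN), the zonula occludens scaffolds TJP1 and TJP3, and cingulin (CGN). They were picked by gene symbol, and all 9 were found once among 27570 genes. Every steer, controls included, was infused into the abomasum with raw corn starch at 3.94 g per kg of body weight per d for 7 d. On top of that, steers received either water or casein at 1.30 g per kg per d by infusion, and either bovine serum albumin (BSA, the vehicle) or glucagon-like peptide 2 (GLP-2) at 100 µg per kg per d by injection under the skin. The Control treatment (water and BSA) and the GLP-2 treatment (water and GLP-2) held 5 steers each, and the Casein and Casein + GLP-2 treatments 6 each, all drawn from 6 body weight blocks. The mucosa was scraped from the mid-jejunum, so each library mixes epithelium with the cells beneath it.

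The tight junction closes the space between neighboring epithelial cells near the lumen. Claudins span the membrane and set which ions and water pass: CLDN3, CLDN4 and CLDN7 are counted mainly as sealing claudins, while CLDN15 forms a channel for sodium and other cations that the small intestine uses to return sodium to the lumen. Occludin is a further membrane protein of the strand, TJP1 and TJP3 tie claudins and occludin to the actin cytoskeleton, and cingulin links that plaque to actomyosin. GLP-2 is a hormone of intestinal L cells that promotes growth of the mucosa.

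Library totals ranged from 8809666 to 28447810 counts, with a median of 12028560.5. The lowest member count in any steer was 11, for CLDN23 in a Casein steer, whereas no library held fewer than 1196 counts of CLDN3. On assembly ARS-UCD1.2, CLDN3 (ENSBTAG00000040432, 25:33507968-33509181, plus strand) and CLDN4 (ENSBTAG00000026278, 25:33477756-33479301, minus strand) lie 28666 bases apart. CLDN15 (ENSBTAG00000000345, 25:35463189-35468712, plus strand) lies 1954007 bases from CLDN3 on the same chromosome. The others are single genes elsewhere: CLDN7 (ENSBTAG00000019448, 19:26970222-26972580), CLDN23 (ENSBTAG00000007051, 27:24740438-24741319), OCLN (ENSBTAG00000000561, 20:10230183-10276416), TJP1 (ENSBTAG00000015398, 21:28399040-28430307), TJP3 (ENSBTAG00000018342, 7:20221723-20252247) and CGN (ENSBTAG00000017564, 3:19252157-19277508).

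Marker genes of epithelium and of other tissue were found in the libraries, in varying amounts. None of the 14 epithelial or 18 villus enterocyte markers was at 0 in every steer of a group. The same held for the crypt proliferation, B cell follicle, T cell, plasma cell, smooth muscle and endothelial markers, so detection alone does not tell tissues apart. The sum of 14 B cell follicle markers, in CPM (counts scaled to the library total), spanned 59.8 to 2362 in the 11 BSA steers and 39.8 to 96.8 in the 11 GLP-2 steers. Control replicates 1, 3 and 5 and Casein replicate 3 stood apart, with a follicle score (the mean log2 CPM of those markers) of 5.71 to 6.63 against 0.82 to 3.42 in the other BSA steers. The counts for GLP-2 are given both with these 4 steers and without them.

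Per transcript length, the sealing claudins were the most abundant members. RNA integrity varied among samples per the study's methods, and its part in the levels between genes was not tested. Mean FPKM (fragments scaled to transcript length and library size) over the 22 steers were 263.8 ± 96.6 (SD) for CLDN7, 238 ± 76.3 for CLDN3, 126 ± 65.5 for CLDN4 and 105 ± 35.2 for CLDN15. The scaffold genes and occludin were lower, at 25.7 ± 10.8 for CGN, 18.2 ± 8.55 for OCLN, 16.0 ± 5.24 for TJP3 and 13.1 ± 3.31 for TJP1, and CLDN23 was lowest at 10.0 ± 7.19. By treatment, CLDN23 was the lowest in all but Casein + GLP-2, where it averaged 16.4 FPKM and TJP1 15.1. Neighbors in this order mostly overlapped. CLDN7 exceeded CLDN3 in 12 of 22 steers, CLDN4 exceeded CLDN15 in 12, and OCLN exceeded TJP3 in 13, so these pairs have no settled order. CLDN3 was above CLDN4 in 21 steers, CLDN15 above CGN in 21 and CGN above OCLN in 20. Over the 22 steers CLDN15, the channel former, thus averaged below each of the sealing claudins in FPKM, overlapping CLDN4, and above the scaffold genes. In the Casein treatment it averaged above CLDN4, at 109 against 87.9 FPKM.

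The 22 claudin genes found in the table differed widely in level. CLDN3, CLDN4, CLDN7 and CLDN15 together made up 89.5 to 98.4% of the summed claudin FPKM of a steer, with a median of 94.3%. CLDN7 was the leading claudin in 12 steers and CLDN3 in 10. The summed claudin FPKM was 623 ± 193 in the 11 BSA steers and 937 ± 206 in the 11 GLP-2 steers (mean ± SD), and the 2 ranges, 236 to 849.5 and 635 to 1380.5, overlapped.

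The first question was whether injected GLP-2 changed the mRNA expression of these genes. In 11 GLP-2 against 11 BSA steers, over both infusions, CLDN7, CGN, OCLN, TJP3 and TJP1 were higher with GLP-2, by 1.35 to 1.83 times, with edgeR adjusted p between 0.0242 and 0.0366. CLDN23 and CLDN3 tended to be higher (adjusted p up to 0.1), and CLDN4 and CLDN15 did not pass the test. Thus 5 of 9 members were called higher and 0 lower, where 5.13% of all 13928 genes tested were called higher. With the tendencies, 7 of 9 members were included against 11.9% of all genes, and at an unadjusted p of at most 0.05 there were 8 of 9 against 16.5%. The median log2 fold change was 0.70 over the members and 0.01 over all genes, and every member had a value above 0, as did 50.7% of all genes.

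**Figure D1:**
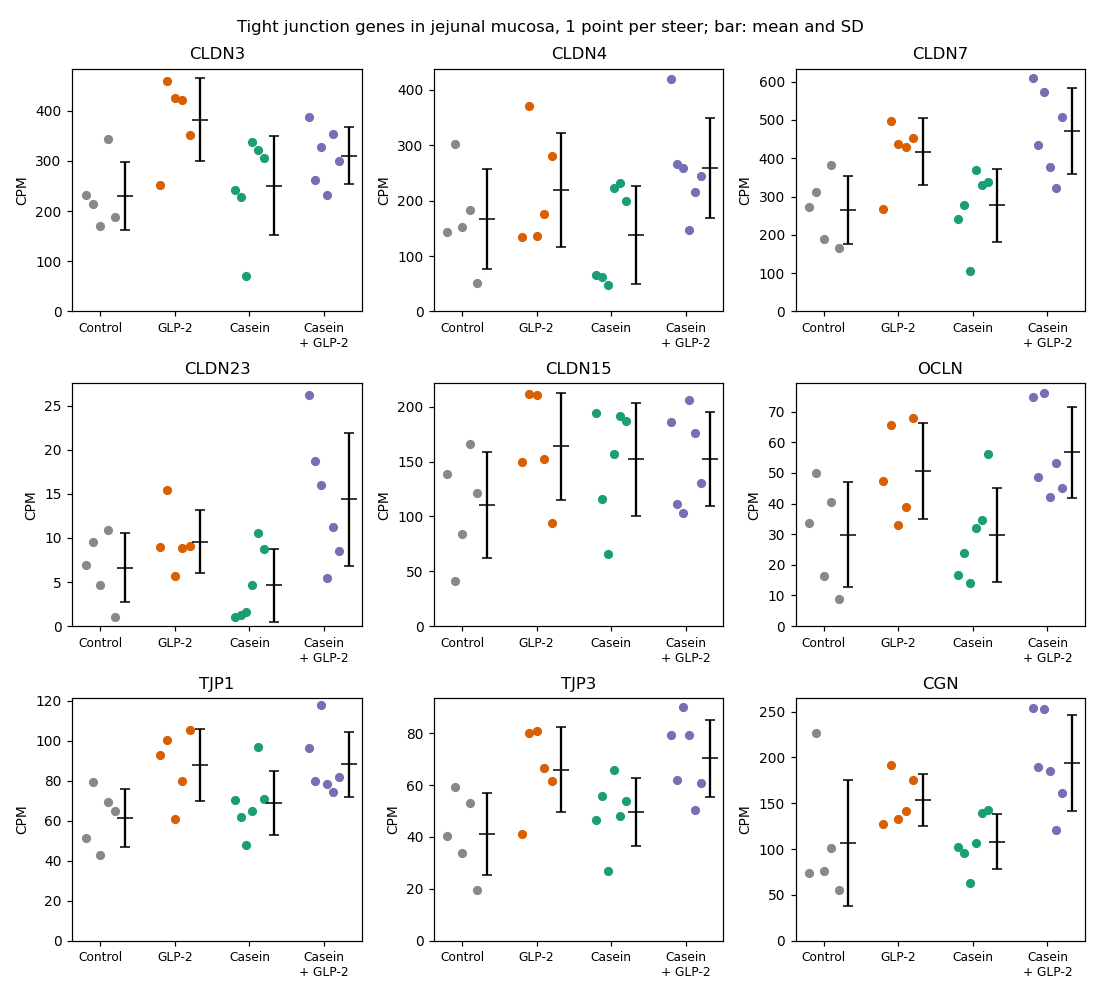
Expression of the 9 genes in CPM (linear axes from 0), 1 point per steer for the 4 treatments, with the mean and SD as a bar beside the points. CLDN7 shows 8 of 11 GLP-2 steers above the highest BSA steer, and CLDN15 shows 3 of 11.

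CLDN7, a sealing claudin also found along the lateral membrane, had the smallest adjusted p. Its CPM was 166, 190.1, 272, 311 and 383 in the Control steers and 268, 429, 436, 452 and 498 in the GLP-2 steers. In the Casein steers it ran from 106 to 370.5 with a median of 303, and in the Casein + GLP-2 steers from 323 to 609 with a median of 471. A total of 8 GLP-2 steers lay above the highest BSA steer, and the groups overlapped in the rest. The log2 fold change was 0.73 (SE 0.193, edgeR adjusted p = 0.0242).

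CLDN3, a sealing claudin of the small intestine, had a CPM of 169, 189, 215, 232 and 343 in the Control steers and 252, 351, 421, 426 and 458 in the GLP-2 steers. The Casein steers ranged from 70.8 to 337 (median 274) and the Casein + GLP-2 steers from 233 to 388 (median 313). All 11 GLP-2 steers were above the BSA median, and 6 were above the highest BSA steer. CLDN3 tended to be higher with GLP-2 (log2 fold change 0.52, SE 0.200, adjusted p = 0.0753 by edgeR).

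CLDN4, a sealing claudin that restricts sodium, varied more among steers. Its CPM was 51.4, 144, 152, 182 and 302 in the Control steers and 135, 137, 176, 280.3 and 371 in the GLP-2 steers, with 47.5 to 232 (median 133) in the Casein and 147 to 419.6 (median 252) in the Casein + GLP-2 steers. The coefficient of variation was 56.9% among BSA and 38.7% among GLP-2 steers. The log2 fold change of 0.70 (SE 0.308) was close to that of CLDN7 but had an adjusted p of 0.114 by edgeR.

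CLDN23, a less studied claudin, had the widest spread and the largest point estimate. Its CPM was 1.09, 4.71, 6.97, 9.53 and 10.9 in the Control steers and 5.63, 8.83, 8.94, 9.08 and 15.5 in the GLP-2 steers. The Casein steers ran from 1.08 to 10.5 (median 3.15) and the Casein + GLP-2 steers from 5.49 to 26.3 (median 13.6). The coefficient of variation was 71.4% among BSA and 51.9% among GLP-2 steers, the highest of the 9 genes in both. GLP-2 gave a tendency, with a log2 fold change of 1.16 (SE 0.413, edgeR adjusted p = 0.0591).

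CLDN15, the channel-forming member, showed no change past the threshold. Its CPM was 41.4, 84.0, 122, 139 and 166 in the Control steers and 94.1, 149.7, 153, 210.2 and 212 in the GLP-2 steers. In the Casein steers it ran from 65.9 to 194 (median 172) and in the Casein + GLP-2 steers from 103 to 206 (median 153). Only 3 of 11 GLP-2 steers lay above the highest BSA steer. The log2 fold change was 0.25 with a 95% interval from -0.21 to 0.71 (adjusted p = 0.429 by edgeR), so an increase of the size seen for TJP1 or TJP3 lies inside that interval.

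Occludin had the largest change among the called members. OCLN CPM was 8.84, 16.3, 33.8, 40.4 and 50.02 in the Control steers and 32.99, 38.9, 47.5, 65.7 and 68.0 in the GLP-2 steers, with 14.2 to 56.1 (median 28.0) in the Casein and 42.2 to 75.9 (median 51.0) in the Casein + GLP-2 steers. All 11 GLP-2 steers were above the BSA median, and 6 BSA steers were below the lowest GLP-2 steer. The log2 fold change was 0.88 (SE 0.257, edgeR adjusted p = 0.0323).

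The 3 plaque genes were all called higher. CGN CPM was 54.8, 73.5, 76.0, 101 and 227 in the Control steers and 127, 133, 141, 175 and 192 in the GLP-2 steers, with 62.9 to 142 (median 104) in the Casein and 120.3 to 254 (median 187) in the Casein + GLP-2 steers. The single high Control value belonged to replicate 2, and 8 of 11 BSA steers were below the lowest GLP-2 steer. The CGN log2 fold change was 0.73 (SE 0.208, edgeR adjusted p = 0.0305).

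TJP3 CPM was 19.5, 33.7, 40.4, 52.9 and 59.2 in the Control steers and 41.0, 61.6, 66.4, 79.9 and 80.8 in the GLP-2 steers. The Casein steers spanned 26.7 to 65.9 (median 51.0) and the Casein + GLP-2 steers 50.3 to 90.1 (median 70.6). TJP3, the scaffold largely restricted to epithelia, changed by 0.59 on the log2 scale (SE 0.178, edgeR adjusted p = 0.0346), and 6 GLP-2 steers exceeded the highest BSA steer.

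TJP1, the scaffold shared by epithelia and endothelia, was the steadiest member. Its CPM was 42.7, 51.6, 64.7, 69.4 and 79.5 in the Control steers and 61.0, 79.7, 92.9, 100.4 and 105 in the GLP-2 steers, with 47.9 to 97.1 (median 67.6) in the Casein and 74.5 to 118 (median 81.0) in the Casein + GLP-2 steers. The coefficient of variation was 23.1% among BSA and 18.3% among GLP-2 steers, the lowest of the 9 genes in both. Its log2 fold change of 0.44 (SE 0.133, edgeR adjusted p = 0.0366) was the smallest of those called.

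These calls depended on how tissue makeup and blocks were treated. With the body weight block as a term, 3 members were called (CLDN7 and CGN at an adjusted p of 0.0488 and TJP3 at 0.0489 by edgeR) against 2.52% of all genes, and OCLN (0.0525) and TJP1 (0.0695) were not. A DESeq2 Wald test called 7, adding CLDN3 (0.0497) and CLDN23 (0.0266), against 9.15% of all genes. Without the 4 steers of high follicle score, 0 members and 0% of all genes were called by edgeR, with adjusted p from 0.32 upward. In that comparison 4 members, CLDN7, OCLN, CGN and TJP3, had an unadjusted p of at most 0.05, against 5.97% of all genes, and all 9 estimates stayed above 0, from 0.06 for CLDN15 to 0.88 for CLDN23.

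Leaving out 1 steer at a time, 1 to 7 members were called. CLDN7 was called in 22 of 22 such fits, CGN in 15, OCLN in 14, TJP3 in 11, TJP1 in 9, CLDN23 in 4, CLDN4 in 1, and CLDN3 and CLDN15 in 0. The count fell to 1 without Casein replicate 3, Control replicate 1 or 3, GLP-2 replicate 3, or Casein + GLP-2 replicate 1 or 3. It fell to 2 without Casein replicate 1, Control replicate 5 or GLP-2 replicate 6, to 3 without Casein + GLP-2 replicate 2 or 4, and rose to 7 without Control replicate 2.

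Some cell type markers moved with the same contrast, and their part in these results was not tested beyond the fits given here. With GLP-2, 3 of 14 epithelial markers and 2 of 18 villus enterocyte markers were called higher, where 5.13% of all genes were. In the other direction, 11 of 12 B cell follicle markers tested, 6 of 10 crypt proliferation markers, 3 of 6 plasma cell markers and 1 of 8 T cell markers were called lower, against 8.37% of all genes. The villus enterocyte and T cell call counts thus lie close to those of all genes. All 18 villus enterocyte markers nevertheless had a log2 fold change above 0, with a median of 0.99 against 0.01 over all genes. Of the 8 T cell markers 0 were above 0, with a median of -0.15. The villus enterocyte score (mean log2 CPM of its markers) was 8.92 ± 1.35 in BSA and 10.25 ± 0.622 in GLP-2 steers (SD). This score was not used as a covariate in any fit. Of the smooth muscle and endothelial markers, 8 each, 0 were called, and 0 had a log2 fold change above 0 (medians -1.21 and -0.88). Summed epithelial CPM spanned 2077 to 5770 in the BSA and 3986 to 7997 in the GLP-2 steers, and summed villus enterocyte CPM 3184 to 86389 and 29405 to 128402. With the follicle score or the epithelium score as a covariate, 0 members and 0% of all genes were called, and 0 members had an unadjusted p of at most 0.05. In such bulk tissue, fewer cells of a type and less RNA per cell cannot be told apart.

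**Figure D2:**
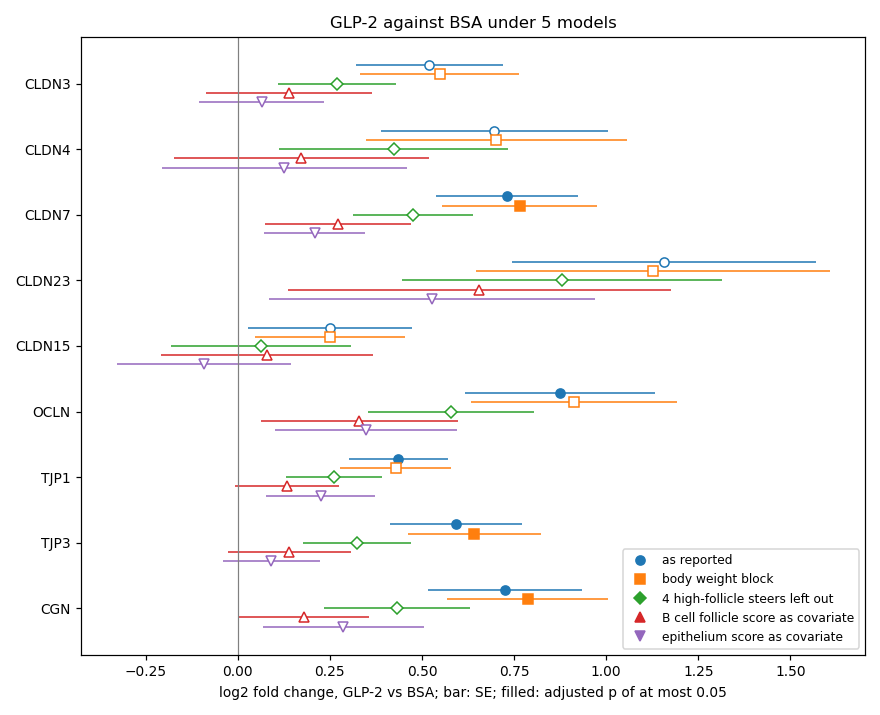
Log2 fold change of each gene, GLP-2 against BSA, under 5 models, with bars of 1 SE and filled symbols for an adjusted p of at most 0.05. Estimates shrink toward 0 when the 4 high-follicle steers are left out or when a tissue score enters, and CLDN15 passes below 0 (-0.09) with the epithelium score.

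Under the follicle score the estimates were smaller for every member, 0.27 for CLDN7 and 0.33 for OCLN on the log2 scale. Under the epithelium score CLDN7 was at 0.21 (SE 0.137), OCLN at 0.35 (SE 0.246), TJP1 at 0.23 (SE 0.147) and CLDN3 at 0.07 (SE 0.170). Both scores differed between the injection groups themselves, with an epithelium score of 6.54 ± 0.349 in BSA and 6.92 ± 0.193 in GLP-2 steers and a follicle score of 3.53 ± 2.23 and 1.06 ± 0.545 (mean ± SD, n = 11 each), so these models cannot separate injection from tissue makeup.

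Each infusion was then considered on its own, in a model of the 4 treatments with 15086 genes tested. GLP-2 against Control gave 0 called members by edgeR or DESeq2, and 0 called genes in the whole table by edgeR. At an unadjusted p of at most 0.05, 4 members were higher, CLDN3 (log2 fold change 0.73), TJP3 (0.68), CLDN7 (0.66) and TJP1 (0.51), against 5.59% of all genes. Their edgeR adjusted p-values were 0.285, 0.275, 0.320 and 0.275. Control replicate 2 mattered here: without it, CGN was called (log2 fold change 0.98, edgeR adjusted p = 0.0446), as were 0.962% of all genes in the higher direction, and 6 members were at an unadjusted p of at most 0.05. Other steers worked the opposite way: the 4 members at that unadjusted p became 0 without GLP-2 replicate 3, 1 without Control replicate 3 or 5, and 2 without GLP-2 replicate 6 or with the body weight block. Of the 4 high-follicle steers 3 are Controls, and without all 4, which leaves 2 Control steers, 0 members were at that unadjusted p against 2.1% of all genes. The estimates without them were 0.64 for CLDN15, 0.44 for CLDN3, 0.25 for CLDN7, 0.22 for TJP1 and TJP3 and 0.15 for OCLN, and those of CLDN4 (-0.15), CGN (-0.11) and CLDN23 (-0.10) were below 0, each with an edgeR adjusted p of 0.999.

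Casein + GLP-2 against Casein also gave 0 called members by edgeR, with 6 higher at an unadjusted p of at most 0.05 against 9.88% of all genes. CLDN23 had the largest estimate (log2 fold change 1.62, SE 0.563), followed by OCLN (0.94), CLDN4 (0.90), CGN (0.84), CLDN7 (0.77) and TJP3 (0.51), with edgeR adjusted p-values from 0.126 for CGN to 0.206 for TJP3. Leaving out 1 steer gave 4 to 7 members at that unadjusted p, and leaving out the 4 high-follicle steers gave 4, against 12.6% of all genes. DESeq2 called 1 member, CLDN23 (adjusted p = 0.0436), against 2.09% of all genes. CLDN15 had like means in both groups, at 152 ± 51.7 and 152 ± 42.6 CPM (SD, n = 6 each), with a 95% interval of the log2 fold change from -0.62 to 0.63.

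CLDN15 thus gave 0.57 without casein and 0.00 with it, and CLDN23 gave 0.53 and 1.62. Without Control replicate 2, the values without casein were 0.33 (SE 0.305) for CLDN15 and 0.67 (SE 0.647) for CLDN23. The difference between the 2 GLP-2 responses, with all steers, was tested as the casein by GLP-2 interaction. It was -0.57 (SE 0.447) for CLDN15 and 1.09 (SE 0.817) for CLDN23, each with an edgeR adjusted p of 0.996. By edgeR 0 members were called for the interaction, and 0 had an unadjusted p of at most 0.05, against 4.28% of all genes. DESeq2 called 0 members as well.

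**Figure D3:**
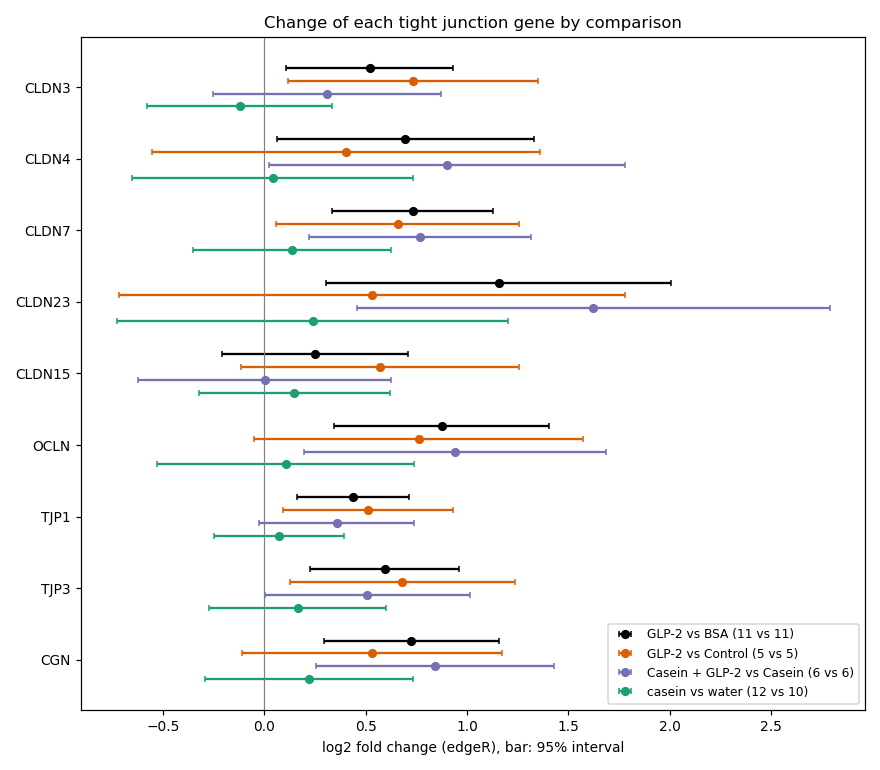
Log2 fold change of each gene with its 95% interval (edgeR) for GLP-2 against BSA, for GLP-2 within each infusion, and for casein against water. The GLP-2 estimates sit at or above 0 for every gene, and every casein interval spans 0.

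The second question was whether casein infusion changed these genes. In 12 casein against 10 water steers, 0 members were called by edgeR or DESeq2, the smallest edgeR adjusted p among them being 0.994, and 0 had an unadjusted p of at most 0.05, against 3.36% of all genes. Estimates ran from -0.12 for CLDN3 to 0.24 for CLDN23 on the log2 scale. The 95% interval was narrowest for TJP1, from -0.25 to 0.39, and widest for CLDN23, from -0.73 to 1.20. CLDN15, at 137 ± 54.0 CPM with water and 152 ± 45.2 with casein (SD), had an estimate of 0.15 with an interval from -0.32 to 0.62. Casein against Control and Casein + GLP-2 against GLP-2 likewise gave 0 called members by both tools and 0 at an unadjusted p of at most 0.05 by edgeR, against 5.66% and 2.64% of all genes.

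The balance of the channel former to each sealing claudin was taken as a ratio within each steer, which needs no library scaling. The FPKM ratio of CLDN15 to CLDN3 was 0.510 ± 0.169 in the BSA and 0.420 ± 0.145 in the GLP-2 steers (mean ± SD, n = 11 each). The ratio to CLDN7 was 0.507 ± 0.178 and 0.369 ± 0.141, and that to CLDN4 1.40 ± 0.949 and 0.865 ± 0.473. CLDN15 never exceeded CLDN3 or CLDN7, but exceeded CLDN4 in 7 of 11 BSA and 3 of 11 GLP-2 steers. The ratio to CLDN23, a gene of low counts, ran from 2.80 to 115.8 in BSA and from 3.84 to 24.1 in GLP-2 steers.

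On the log2 scale of counts with 0.5 added, all 4 ratios were lower with GLP-2, by amounts inside the spread among steers. The difference, GLP-2 minus BSA, was -0.26 for CLDN3 (permutation p = 0.265), -0.52 for CLDN4 (p = 0.247), -0.45 for CLDN7 (p = 0.119) and -1.13 for CLDN23 (p = 0.0463), by a 2-sided permutation test. Adjusted over these 4 ratios, the permutation p-values were 0.265, 0.265, 0.237 and 0.185. A weaker response of CLDN15 than of the sealing claudins is therefore not established by these 22 steers.

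That outcome held for each ratio in 21 of 22 tests with 1 steer left out, and ended only without Control replicate 2. Control replicate 2 had the lowest CLDN15 of all, 41.4 CPM, beside the highest Control values of CLDN4, OCLN, TJP1, TJP3 and CGN, and its CLDN15 to CLDN7 ratio of 0.131 was the lowest of the 22. Without it the differences were -0.41 for CLDN3, -0.80 for CLDN4, -0.63 for CLDN7 and -1.42 for CLDN23, with adjusted permutation p of 0.0303, 0.0303, 0.0159 and 0.0159. Without the 4 high-follicle steers, in contrast, they were -0.11, -0.37, -0.30 and -1.01, with adjusted permutation p of 0.693, 0.642, 0.642 and 0.509. Shuffling within blocks gave adjusted permutation p from 0.162 to 0.254.

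**Figure D4:**
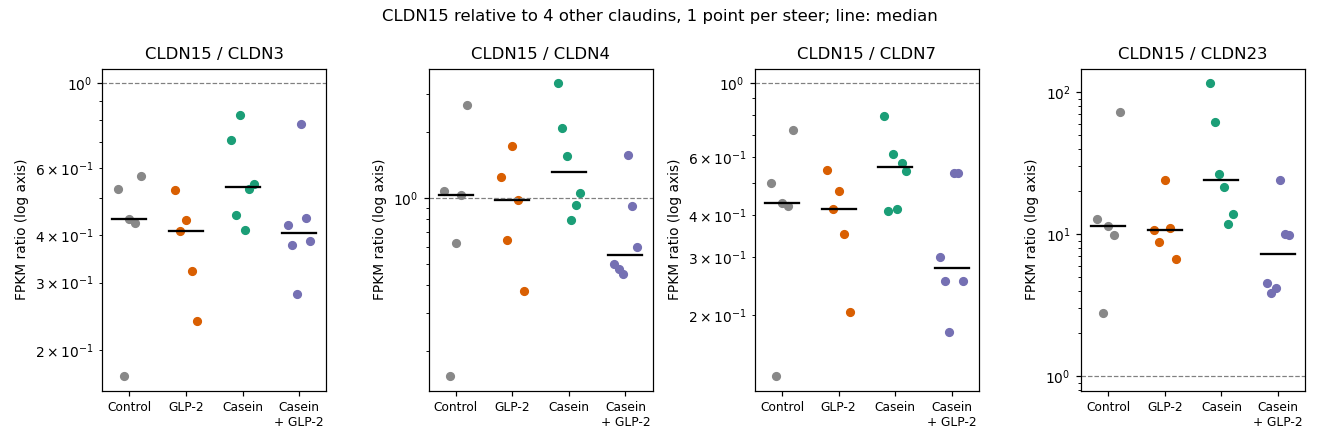
FPKM ratio of CLDN15 to CLDN3, CLDN4, CLDN7 and CLDN23 per steer on log axes, with the median as a line and a dashed line at 1. The Casein + GLP-2 medians, 0.405, 0.550, 0.277 and 7.22, are the lowest of the 4 treatments in each panel. For CLDN3 the GLP-2 median, 0.410, is nearly the same. The mean CLDN3 ratio of Casein + GLP-2, 0.448, is above those of Control (0.428) and GLP-2 (0.386). The lone low Control point is replicate 2.

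The 2 infusions are given apart for these ratios, as a description. With water, GLP-2 minus Control was -0.09 for CLDN3, 0.17 for CLDN4, -0.03 for CLDN7 and -0.15 for CLDN23 on the log2 scale. Control replicate 2 weighs on these values, being the lowest Control steer in each ratio. Its FPKM ratios were 0.171, 0.154, 0.131 and 2.80, against Control medians of 0.440, 1.03, 0.436 and 11.5. The differences with water were not computed without that steer. With casein, Casein + GLP-2 minus Casein was -0.40, -1.09, -0.79 and -1.96, with exact permutation p of 0.143, 0.0325, 0.026 and 0.013. These comparisons were chosen after the data were seen, and adjusted over the 16 pairs computed the last 3 each had an exact permutation p of 0.173. Whether the infusions differ was not tested for the ratios. Casein against water gave 0.35, 0.25, 0.11 and 0.33, with adjusted permutation p of 0.511 to 0.71.

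Most members varied together across steers, and CLDN15 did so mainly with CLDN3. Over the 22 steers, Pearson r of log2 CPM between pairs of the other 8 genes was 0.581 to 0.925 (28 pairs, median 0.752), highest for CLDN4 with CLDN23. Pairs with CLDN15 gave 0.078 to 0.603 (8 pairs, median 0.196), the highest being CLDN3, within the range of the other pairs. With treatment means removed, CLDN15 with CLDN3 stood at 0.587, above the 0.316 of TJP1 with TJP3. These pairs share libraries and their scaling and are given as a description.

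Members were then set against the 2 epithelial scores, 18 relations in all. Libraries held epithelium in varying amounts, so many genes of epithelium may follow such scores. The permutation p-values are for all steers together, and both scores differed between the injection groups. They test only against no relation, and no share of all genes with a like r is given. These p-values therefore do not set the members apart from other genes of epithelium. OCLN followed the villus enterocyte score most closely, with r = 0.956 (permutation p = 1e-05, the smallest that the resamples can give, adjusted p = 3e-05) and rho = 0.913 (permutation p = 1e-05, adjusted p = 3.6e-05). It was 0.939 without the 2 steers farthest on the score, 0.906 within the GLP-2 and 0.947 within the BSA steers. CLDN4 (r = 0.897), CLDN23 (0.875), CGN (0.851) and CLDN7 (0.818) came next. CLDN15 did not follow this score, with r = 0.0639 (permutation p = 0.778, adjusted p = 0.778) and rho = 0.0367 (permutation p = 0.873), 0.183 without the 2 farthest steers, -0.265 within the GLP-2 and -0.0704 within the BSA steers.

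With the general epithelium score the order changed. CLDN7 gave r = 0.930 (permutation p = 1e-05, adjusted p = 3e-05) and rho = 0.862 (permutation p = 1e-05), 0.857 without the 2 farthest steers, 0.768 within GLP-2 and 0.935 within BSA steers. TJP3 gave r = 0.913 and CLDN3 0.848. CLDN15 gave r = 0.538 (permutation p = 0.0116, adjusted p = 0.0123) and rho = 0.535 (permutation p = 0.0118, adjusted p = 0.0141), 0.467 without the 2 farthest steers, 0.167 within the GLP-2 and 0.585 within the BSA steers. The relation of CLDN4 fell from r = 0.669 to 0.358 and that of CLDN23 from 0.624 to 0.373 without the 2 farthest steers, Casein replicate 3 and Control replicate 5, and so rested in part on them.

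**Figure D5:**
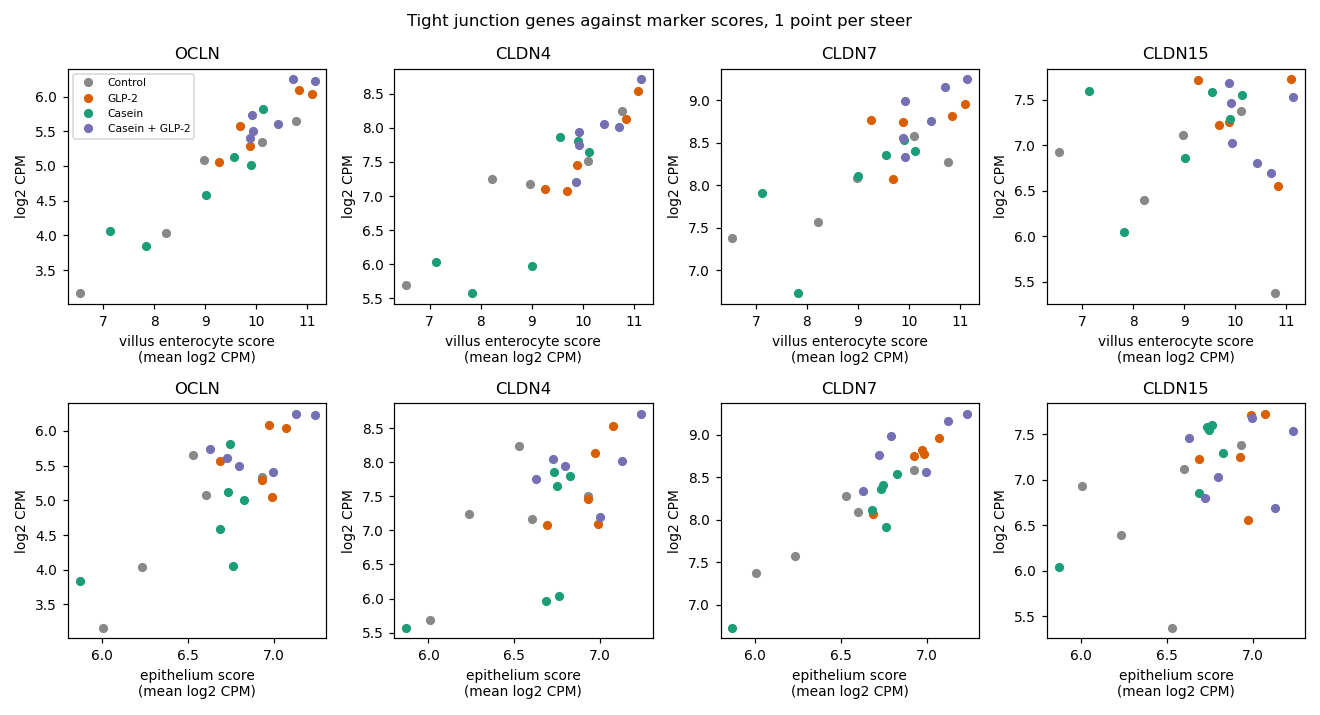
Log2 CPM of OCLN, CLDN4, CLDN7 and CLDN15 against the villus enterocyte score (top) and the epithelium score (bottom), each score being the mean log2 CPM of its markers, 1 point per steer colored by treatment. OCLN and CLDN4 rise along the villus score, CLDN7 along both scores, and CLDN15 shows no slope against the villus score.

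The rest of the junction was read from a list of 60 further tight junction symbols, of which 56 were found and 38 had enough counts to be tested. With GLP-2, 13 of 38 were called higher and 0 lower, and 5 more tended to be higher and 3 to be lower, against the 5.13% of all genes called higher. The median log2 fold change of the 38 was 0.48. Among plaque proteins, PRKCI (0.65) and PATJ (1.19), polarity proteins that help place the junction, ARHGEF11 (0.81), a guanine nucleotide exchange factor, the scaffolds MAGI1 (0.83) and MAGI3 (0.61), and MPP5 (0.63), the partner of PATJ, rose. Among membrane proteins, CXADR (1.25), F11R (0.70), LSR (0.45), a protein of tricellular corners, and MARVELD3 (1.03), a relative of occludin, rose. Their edgeR adjusted p-values ran from 0.0229 to 0.0496.

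Several of these calls ended under other settings. With the body weight block 6 of 38 were called, against the 2.52% of all genes, and PRKCI, PATJ, ARHGEF11, MAGI1, MAGI3 and CXADR were those 6. The edgeR adjusted p with the block was 0.0509 for MPP5, 0.0555 for MARVELD3, 0.056 for F11R and 0.0747 for LSR. With the infusion as covariate it was 0.0513 for F11R, 0.0531 for MARVELD3 and 0.0552 for MPP5. Without filtering on low counts 8 of 49 were called higher, against 2.49% of all genes. With either tissue score as covariate 0 of 38 were called, and 0 of 39 without the 4 high-follicle steers. There the estimates of the genes named were 0.78 for PATJ, 0.83 for CXADR, 0.67 for MARVELD3, 0.52 for ARHGEF11, 0.50 for MAGI1, 0.47 for F11R, 0.44 for PRKCI, 0.37 for MPP5, 0.34 for MAGI3 and 0.21 for LSR, with edgeR adjusted p from 0.32 to 0.397. DESeq2 called 15 higher and 3 lower. Leaving out 1 steer gave from 2 higher and 0 lower, without Casein + GLP-2 replicate 3, to 18 higher and 3 lower, without Control replicate 2.

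Of 17 other claudins found, 4 had enough counts to be tested. CLDN2, like CLDN15 a channel for cations and water, stood at 40.7 ± 29.6 CPM in BSA and 94.7 ± 66.9 in GLP-2 steers (SD, n = 11 each) and was called higher (log2 fold change 1.24, SE 0.409, edgeR adjusted p = 0.0458). It was the less abundant of the pair, at 24.5 FPKM on average over all steers against 105 for CLDN15, and it kept its call in 8 of 22 fits with 1 steer left out. CLDN2 was not called with the body weight block (edgeR adjusted p = 0.0741), with the infusion as covariate (0.0646), without filtering on low counts (0.0552), or without the 4 high-follicle steers (log2 fold change 0.89, adjusted p = 0.378). CLDN12 was at 5.11 ± 2.36 and 9.53 ± 2.66 CPM and was called higher (0.91, SE 0.269, adjusted p = 0.0326 by edgeR), but not with the block (0.0505) or without the 4 high-follicle steers (0.66, adjusted p = 0.32 by edgeR). CLDN1 tended to be higher (0.83, SE 0.315, adjusted p = 0.0718 by edgeR).

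CLDN5, the claudin of endothelium, went the other way as a tendency. It was at 11.2 ± 13.9 CPM in BSA and 2.71 ± 2.90 in GLP-2 steers (SD, n = 11 each), with a log2 fold change of -2.09 (SE 0.807, edgeR adjusted p = 0.0765). For CLDN5 the edgeR adjusted p was 0.110 with the body weight block and 0.410 without the 4 high-follicle steers (log2 fold change -1.56). On FPKM, limma gave adjusted p of 0.149 and 0.143, while a DESeq2 Wald test gave 0.045. JAM2, an adhesion molecule of vessels, also tended to be lower (-1.76, adjusted p = 0.0621 by edgeR), as did YBX3, an mRNA-binding protein (-0.80, adjusted p = 0.0653 by edgeR). The summed CPM of 8 endothelial markers spanned 22.9 to 652 in the BSA and 17.7 to 385 in the GLP-2 steers, and its part in these values was not tested.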

How the data were processed

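Mucosa scraped from the jejunum of 22 steers was sequenced by the authors as poly-A selected, strand-specific libraries with reads of 150 bases. Per the labels and the study's methods, the authors aligned reads with HISAT2 2.0.5 to ARS-UCD1.2, assembled transcripts with StringTie 1.3.3b and counted them with featureCounts 1.5.0-p3, and used DESeq2 1.20 for their own tests. The strand setting of the counting is not given in the sources used here. The deposited table holds raw counts per gene and FPKM values computed by the authors. Library columns without a sample numbered 0, and a further GLP-2 steer of block 2 is not analysed here.

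Counts were filtered (filterByExpr, minimum count 10), scaled by TMM and fitted with edgeR 4.0.16 quasi-likelihood tests in R 4.3.3, with Benjamini-Hochberg adjustment over all genes tested. A gene was called at an adjusted p of at most 0.05 and described as a tendency up to 0.1. CPM values use the TMM scaling, log2 CPM a prior count of 2. FPKM served for levels between genes, and fold changes in FPKM as alternatives were on log2(FPKM + 1) and log2(FPKM + 0.1) with limma 3.58.1. DESeq2 1.42.0 was run as an alternative. Ratios of CLDN15 were tested by 100000 random permutations, or exact permutation for 2 treatments, with scipy 1.17.1 in Python 3.11.15. Replicates are separate steers. Total counts bound the precision, most for CLDN23, and counting error covers only part of the spread.

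Steers were randomised within body weight blocks, so the block number pairs them by design. In a check over all genes, 30 pairs of steers from 1 block had a mean correlation of residuals of 0.0331, with 13 of 30 above 0.1, against -0.00641 for 151 other pairs. The fit without block was kept as the main one because the study's methods do not name it in the model, and the adjusted p with the block is given for the named genes whose call it ends.

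The members, marker lists and tests were chosen with earlier results of these data known. All 9 members are named. Of the other tight junction genes, those called in GLP-2 against BSA are named, up to the 12 of smallest p, with every other claudin that passed the filter, and JAM2, YBX3 and MPP5 were added after their values were seen. For likeness of pattern, the 3 genes of highest Pearson r are named per member. Of the genes these rules pick, 2 are not reported here. Alternatives were RLE scaling, no filter, the block, tissue scores or the other factor as covariates, limma, DESeq2 and leaving out each steer. Leaving out the 4 high-follicle steers, from the pooled comparison and from the model of 4 treatments, and the ratios between pairs of treatments, were added after seeing the data. The fitting was tested on simulated data. Sequences were not used here.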

Additional observations from a re-analysis of the deposited data

Results flagged for a closer look

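In 4 of 52 sets of values, each a gene or ratio within 1 treatment, a single steer lay farther from its nearest neighbor than Dixon's 95% limit allows, where chance gives about 1 in 20. Casein replicate 3 was low for CLDN3, at 6.15 log2 CPM with the next Casein steer at 7.83, and for CLDN7, at 6.73 with the next at 7.91. That steer had an epithelium score of 5.87, the lowest of the 22, and a B cell follicle score of 6.63, the highest. GLP-2 replicate 1 was low for CLDN7, at 8.07 log2 CPM with the next GLP-2 steer at 8.75. Control replicate 2 had a log2 CLDN15 to CLDN3 count ratio of -2.38 with the next Control steer at -1.04, beside a villus enterocyte score of 10.8, the highest among BSA steers.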

How the results depend on the processing

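For GLP-2 against BSA, 5 members, 13 other tight junction genes and 1881 of all genes passed the threshold. With the replicate block these counts were 3, 6 and 689, and each was 0 with the B cell follicle score as covariate, 0 with the epithelium score and 0 without the 4 high-follicle steers. The other tight junction count was 8 without a filter on low counts, and DESeq2 called 2999 genes in all. Leaving out 1 steer gave 1 to 7 members, 2 to 21 other tight junction genes (18 higher and 3 lower at most) and 634 to 3516 genes in all. RLE scaling, no filter, the other factor as covariate, limma on either FPKM scale and DESeq2 left the member count within 1.5 times. For Casein + GLP-2 against Casein, DESeq2 called 1 member where edgeR called 0, and for GLP-2 against Control leaving out 1 steer gave 0 to 1. The block changed no call of the other comparisons or of the ratios compared between GLP-2 and BSA or casein and water, and ratios between pairs of treatments were not run with it.

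Leaving out 1 steer, the GLP-2 differences of the log2 CLDN15 ratios ran from -0.41 to -0.18 for CLDN3, -0.80 to -0.35 for CLDN4, -0.63 to -0.35 for CLDN7 and -1.42 to -0.88 for CLDN23. Those of casein ran from 0.22 to 0.42 for CLDN3, -0.022 to 0.43 for CLDN4, -0.061 to 0.22 for CLDN7 and 0.07 to 0.62 for CLDN23. CLDN15 turned to -0.092 for GLP-2 with the epithelium score. For casein against water, where no member was called, signs turned for CLDN4 (-0.25 with the follicle score, -0.13 with the epithelium score, -0.021 with the other factor, -0.037 and -0.038 with limma), CLDN7 (-0.11), OCLN (-0.13), TJP1 (-0.029) and CLDN23 (-0.17) with the follicle score, and CLDN23 with limma (-0.063 and -0.12). Leaving out 1 steer gave -0.15 to 0.19 for CLDN4, -0.055 to 0.38 for CLDN23, -0.029 to 0.21 for OCLN and -0.0094 to 0.13 for TJP1. Fewer steers entered those last fits, and the cause of the other shifts was not tested.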

Other observations

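The genes whose log2 CPM followed each member most closely over the 22 steers, out of 13237 genes, differed by member. For OCLN they were BCO2, a carotenoid-cleaving enzyme (Pearson r = 0.964), CXADR (0.961), itself a junction adhesion protein, and TMPRSS15, the enteropeptidase of the brush border (0.960). CLDN23 was followed by CXCL16 (0.938), TMBIM1 (0.924) and MOGAT2, an enzyme of triglyceride resynthesis in enterocytes (0.922), and CLDN4 by PAFAH2 (0.954), TMBIM1 (0.953) and CYB5R3 (0.935). CGN was followed by PLEC (0.962), CARMIL1 (0.943) and MYO7B, a myosin of the brush border (0.936).

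CLDN7 was followed by CREB3L1 (0.945), MYO1D (0.943) and ADTRP (0.942), CLDN3 by NDUFB4 (0.928) and SLC52A3 (0.923), TJP3 by MISP (0.911), EPS8L3 (0.911) and PAK4 (0.908), and TJP1 by KLF9 (0.935), BTBD3 (0.907) and GATA6 (0.895). The closest genes to CLDN15 were PDIA5 (0.802), MGST2 (0.788) and COQ2 (0.785), the lowest leading values of the 9 members. All points share libraries and scaling, and likeness of pattern says nothing here of shared control.

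CLDN15 made up 15.9 ± 4.98% of the summed claudin FPKM in BSA and 12.5 ± 4.03% in GLP-2 steers, and CLDN7 32.0 ± 3.09% and 35.0 ± 4.19% (mean ± SD, n = 11 each), with no test made. CLDN2 held 2.27 ± 1.31% and 3.53 ± 1.90%. With water, Control and GLP-2 steers held mean shares of 13.6% and 13.1% for CLDN15 and 2.50% and 2.47% for CLDN2 (n = 5 each). With casein, Casein and Casein + GLP-2 steers held 17.9 ± 3.60% and 12.1 ± 4.56% for CLDN15 (n = 6 each). For CLDN2 they held 2.07 ± 1.24% and 4.41 ± 2.18%.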
